A study of Homo sapiens with 6 samples.

Results

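Interferon-stimulated genes are the genes that cells switch on after sensing interferon, and 48 of them were followed here in a lung cancer line driven through epithelial-mesenchymal transition. The members were taken by gene symbol from a list written from general knowledge, with earlier results of these data known. A member was measured where the platform annotation gave a probe set that symbol alone, and where several did, the probe set with the highest mean over all 6 arrays was kept. This left 46 members among the 18417 genes tested. GBP1 was present only on a probe set that carries several symbols, and STAT2 was not analysed here.

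RNA came from H358 cells, a lung adenocarcinoma line long in culture that grows as an epithelium. In 3 arrays the cells carried green fluorescent protein (GFP) as a stable transgene, and in the other 3 TwistER, a name used for the Twist transcription factor joined to the hormone-binding part of the estrogen receptor. Both lines received 100 nM 4-hydroxytamoxifen (4OHT), the ligand of such fusions, for 12 days. The submitters' titles place GFP before and TwistER after the transition. The labels do not say whether either line is a clone or a pool, and without arrays of TwistER cells kept free of 4OHT, activation of TwistER and other differences between the lines cannot be told apart. The question asked of the members was how their transcripts differed between these lines. Values are log2 expression, n = 3 arrays per group, every difference is TwistER minus GFP, and errors are SE from limma unless SD is named. The words rose and fell are used at a limma p-value below 0.05 after Benjamini-Hochberg adjustment over all genes tested. Titles call the samples biological replicates without saying how they were separated, so the p-values rest on the spread among these cultures, which may be technical.

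As background, type I and type III interferons bind surface receptors whose kinases JAK1 and TYK2 activate latent transcription factors. With IRF9 these form a complex that binds a DNA motif called the interferon-stimulated response element (ISRE). The response to interferon gamma uses a different motif, the gamma-activated site (GAS). The induced proteins sense foreign nucleic acid, block steps of viral replication or limit the response itself, and many tumour lines transcribe part of the set without added interferon.

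Promoter sequences were used to show what the members share beyond their name. RefSeq promoter windows (build GRCh38.p14, 250 bases before to 50 after a gene's start) were matched for 37 of the 46 members, and 11 of these had several windows. The ISRE core was searched on both strands as GAAA, any 2 bases, and GAAA again, and matches may overlap each other. It was present in at least 1 window of 26 of the 37 members (70.3%), against 587 of 14237 tested genes with a window (4.12%). GAS was searched as TTC, any 3 bases, and GAA, which reads the same on both strands, and 11 of 37 members (29.7%) held it against 9.19% of the tested genes. The 2 motifs can share bases, as they did in IFITM1, MX1, IFI27, EPSTI1 and 1 of the 2 GAS matches of BST2. A match describes the letters only and shows no binding. Close variants were not counted: OAS1, XAF1 and IFI16, which had no match, hold GAAA, 1 base and GAAA.

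The windows below are those of some neighbouring members that behaved differently (IFITM1 and IFITM3, IFI44L and IFI44, SAMD9L and SAMD9), of ISG15 as a classical induced gene that did not pass the test, and of PARP12, the 1 member that fell. PARP9 and PARP14, neighbours that also behaved differently, are not shown. The windows are written 5′ to 3′ along the gene, with matches to the ISRE core on either strand in capitals. Each runs from the region upstream of the gene into its first transcribed bases. For IFI44, which had 2 overlapping windows, the one listed ahead is shown. On GRCh38.p14 the windows are IFITM1 at chr11:313790-314089 (plus strand), IFITM3 at chr11:320811-321110 (minus strand), IFI44L at chr1:78620198-78620497 (plus strand), IFI44 at chr1:78649539-78649838 (plus strand). The others are SAMD9L at chr7:93148336-93148635 (minus strand), SAMD9 at chr7:93117930-93118229 (minus strand), ISG15 at chr1:1013247-1013546 (plus strand) and PARP12 at chr7:140062902-140063201 (minus strand).
IFITM1: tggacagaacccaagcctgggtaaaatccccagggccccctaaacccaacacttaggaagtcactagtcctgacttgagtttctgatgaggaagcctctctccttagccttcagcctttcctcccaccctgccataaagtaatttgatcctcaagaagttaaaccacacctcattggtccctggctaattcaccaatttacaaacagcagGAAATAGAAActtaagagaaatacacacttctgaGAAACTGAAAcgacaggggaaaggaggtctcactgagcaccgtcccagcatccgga
IFITM3: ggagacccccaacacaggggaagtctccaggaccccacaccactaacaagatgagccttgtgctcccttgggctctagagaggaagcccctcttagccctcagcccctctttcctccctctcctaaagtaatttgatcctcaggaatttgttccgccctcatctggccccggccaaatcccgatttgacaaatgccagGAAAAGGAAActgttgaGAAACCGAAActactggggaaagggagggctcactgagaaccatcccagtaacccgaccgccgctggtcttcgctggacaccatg
IFI44L: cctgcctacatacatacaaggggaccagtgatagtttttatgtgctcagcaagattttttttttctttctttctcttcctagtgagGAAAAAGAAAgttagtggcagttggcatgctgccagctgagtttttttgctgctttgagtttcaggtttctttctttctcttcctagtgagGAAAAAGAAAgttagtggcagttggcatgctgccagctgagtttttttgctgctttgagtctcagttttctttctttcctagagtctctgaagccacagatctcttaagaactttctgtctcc
IFI44: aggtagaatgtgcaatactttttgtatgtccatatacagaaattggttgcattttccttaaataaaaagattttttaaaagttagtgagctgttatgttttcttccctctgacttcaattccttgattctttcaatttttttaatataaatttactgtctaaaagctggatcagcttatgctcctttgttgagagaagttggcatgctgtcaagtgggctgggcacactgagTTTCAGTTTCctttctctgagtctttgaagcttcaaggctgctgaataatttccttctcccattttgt
SAMD9L: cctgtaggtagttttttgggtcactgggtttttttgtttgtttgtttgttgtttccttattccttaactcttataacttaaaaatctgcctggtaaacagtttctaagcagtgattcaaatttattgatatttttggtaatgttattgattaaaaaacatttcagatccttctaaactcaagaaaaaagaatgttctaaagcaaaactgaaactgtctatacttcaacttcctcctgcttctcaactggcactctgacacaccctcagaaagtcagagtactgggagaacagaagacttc
SAMD9: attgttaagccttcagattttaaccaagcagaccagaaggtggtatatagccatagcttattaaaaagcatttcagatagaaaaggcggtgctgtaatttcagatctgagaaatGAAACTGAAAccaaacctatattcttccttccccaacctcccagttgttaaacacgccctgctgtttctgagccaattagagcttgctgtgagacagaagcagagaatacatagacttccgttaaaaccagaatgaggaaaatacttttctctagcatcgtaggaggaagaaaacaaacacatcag
ISG15: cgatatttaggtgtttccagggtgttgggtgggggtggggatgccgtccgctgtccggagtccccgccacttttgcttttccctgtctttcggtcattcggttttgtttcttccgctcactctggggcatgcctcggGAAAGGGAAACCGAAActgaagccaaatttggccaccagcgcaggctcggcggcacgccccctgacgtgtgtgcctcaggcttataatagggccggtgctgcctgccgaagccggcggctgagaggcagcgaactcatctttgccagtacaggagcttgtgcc
PARP12: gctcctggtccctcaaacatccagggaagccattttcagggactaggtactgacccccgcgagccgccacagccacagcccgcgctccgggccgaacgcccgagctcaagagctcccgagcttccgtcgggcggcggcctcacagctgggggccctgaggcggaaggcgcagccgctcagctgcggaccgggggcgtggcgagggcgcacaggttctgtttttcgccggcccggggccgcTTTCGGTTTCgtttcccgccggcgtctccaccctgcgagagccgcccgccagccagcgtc
IFITM1 and IFITM3 each held 2 matches, IFI44L 2 and IFI44 1. SAMD9 held 1 and SAMD9L 0 in this window. ISG15 held 2 and PARP12 held 1. Among the 26 members with a match, 6 rose (23.1%) and 1 fell. Of the 11 with a window and no match, 2 rose (18.2%). GBP2, MX2, OAS2 and TRIM22, which rose, had no window and are in neither count. The median difference of the members was 0.08 with a match and 0.35 without. Over all tested genes with a window, 10.7% rose with the ISRE core and 4.62% without it. For GAS, 4 of the 11 members with the motif rose (36.4%), and 15.4% of those without. Over the tested genes with a window these GAS shares were 5.88% and 4.77%. Of the members with GAS that rose, MX1, IFITM1 and IFI27 held it only where it shared bases with an ISRE match, unlike PARP14. No test was made of these differences.

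Part of the set rose in TwistER, while most members did not pass the test. Of the 46 measured members, 12 rose, 1 fell and 33 did not pass, that is 26.1% rises against 4.72% rises among all genes tested, and 28.3% changed against 8.83%. Falls made up 4.11% of all genes. With only genes above the median level fitted, 1581 of 9208 changed, and of the 29 members there 7 rose and 1 fell. An unadjusted p below 0.05 in limma was reached by 24 of the 46 members and by 3969 of the 18417 genes tested. The median difference over the members was 0.21, against 0.01 over all genes. The TwistER arrays lay wholly above or below the GFP arrays in 27 members (58.7%), against 28.4% of all genes. Of the 46, 27 had a difference above 0, where 51.1% of all genes did. The rises were in GBP2, IFITM1, IFI44L, MX2, SAMD9L, IFI6, PARP14, MX1, IFI16, IFI27, TRIM22 and OAS2, and 3 of them were at least 2-fold, where 2.78% of all genes differed so far in either direction.

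GFP replicate 1 stood apart from the other arrays of its line over all genes (r = 0.982 with each of them across genes, which are not independent replicates, while they had r = 0.996 with each other). Over the members it was higher than the mean of the other GFP arrays in 25 of 46, with a median shift of 0.07 and a median absolute shift of 0.24, against 0.23 over all genes. Without it, 16 members rose and 1 fell, against 6.97% rises and 8.09% falls among all genes. The same 13 members passed, and IRF9, IFIT5, IFI44 and XAF1 were added. Leaving out TwistER replicate 1 or 2 cut the rises to 6. Calls over all genes moved too, from 1627 with every array to between 831 and 2773 with a single array left out. GBP2, IFITM1, IFI44L, MX2, IFI16 and PARP14 passed whichever single array was omitted, and the other 7 changed members did not.

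**Figure D1:**
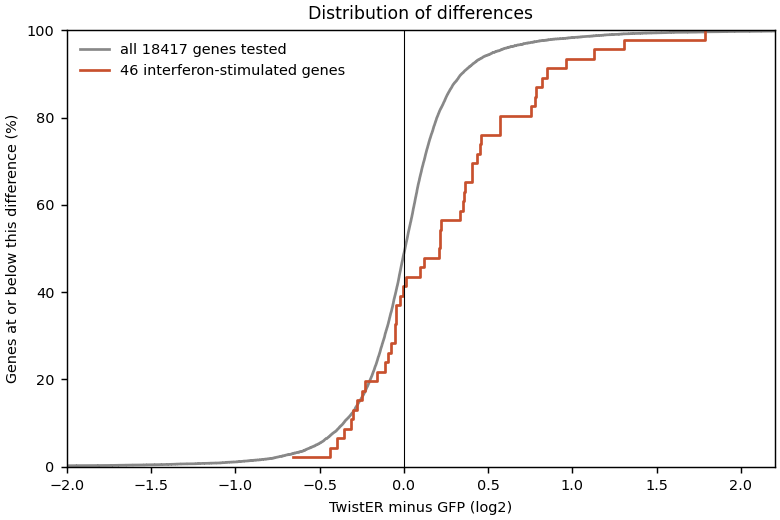
Cumulative share of genes (percent, vertical axis) at or below each TwistER minus GFP difference (log2, horizontal axis), for all 18417 genes tested (grey) and the 46 interferon-stimulated genes (red). The members' curve lies to the right on the side of higher expression, with a median of 0.21 against 0.01; differences beyond the axis limits are not drawn.

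**Figure D2:**
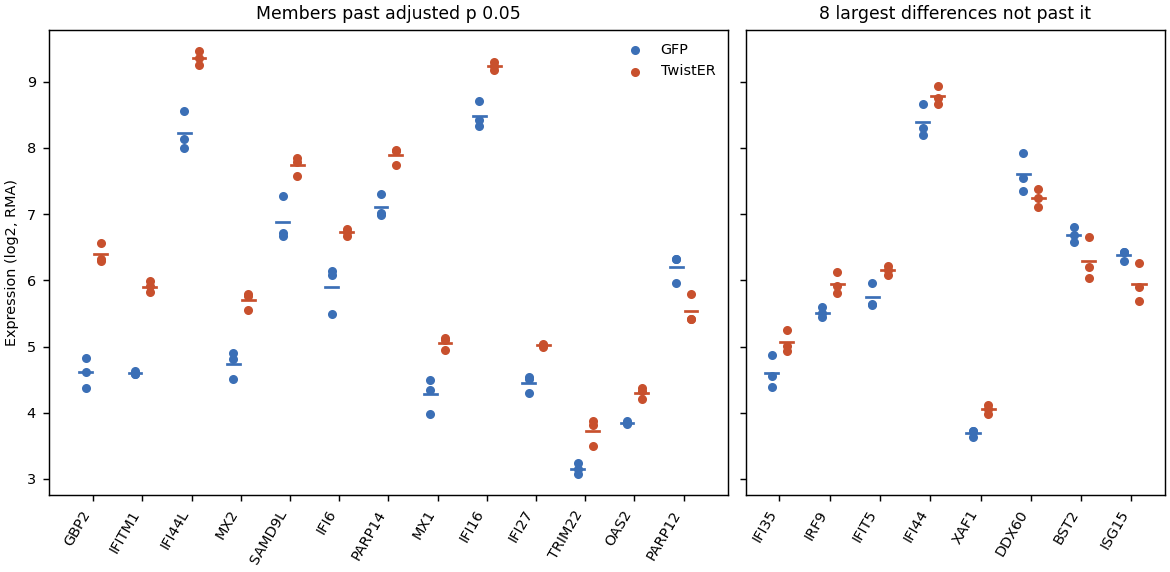
Expression (log2, RMA) in each array for the 13 members that passed the test (left) and the 8 largest differences that did not (right), with GFP in blue, TwistER in red and lines at the group means. The groups separate in every gene of the left panel, and in the right panel they overlap in DDX60 and BST2.

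The large GTPases, proteins that assemble on viral or membrane targets, all rose where measured (3 of 3). GBP2, a guanylate-binding protein that coats pathogen vacuoles, read 4.83, 4.62 and 4.38 in GFP and 6.56, 6.32 and 6.30 in TwistER. Its 3.45-fold rise (1.78 ± 0.15, adjusted p = 0.000175) was the largest of all members, and the groups were far apart. A dimmer second probe set of GBP2 differed by 1.56. The probe set on which GBP1 shares its place with other symbols differed by 1.36 and was not used. MX2, which blocks nuclear entry of retroviral genomes, read 4.51, 4.90 and 4.82 in GFP and 5.76, 5.55 and 5.79 in TwistER, a 1.95-fold rise (0.96 ± 0.14, adjusted p = 0.00327). MX1, which blocks influenza virus, read 3.99, 4.50 and 4.35 in GFP and 5.13, 5.10 and 4.94 in TwistER, a 1.72-fold rise (0.78 ± 0.15, adjusted p = 0.0129). Every TwistER array exceeded every GFP array in both MX genes, and the MX1 call was lost without TwistER replicate 1 or 2 (highest adjusted p = 0.0663).

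Among the membrane proteins and the viperin locus 1 of 5 rose. IFITM1, which hinders fusion of viruses with the cell surface, read 4.59, 4.63 and 4.58 in GFP and 5.98, 5.91 and 5.82 in TwistER. These GFP values varied little (SD 0.03), and the rise was 2.47-fold (1.31 ± 0.10, adjusted p = 0.000145). IFITM3, its relative of the endosome, read 7.85, 7.94 and 8.11 in GFP and 8.27, 8.38 and 8.25 in TwistER, and did not pass (0.33 ± 0.11, adjusted p = 0.127), although the groups did not overlap. BST2, or tetherin, which holds budding virions at the membrane, read 6.80, 6.57 and 6.69 in GFP and 6.65, 6.20 and 6.03 in TwistER. It leaned lower without passing (-0.40 ± 0.17, adjusted p = 0.210), and TwistER replicate 1 fell within the GFP range. RSAD2 (viperin, a radical enzyme that makes a chain-terminating nucleotide) differed by -0.07 and its neighbour CMPK2, a nucleotide kinase, by 0.09. The IFITM genes are close relatives, and cross-reaction of their probes was not tested.

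Of the IFI group and other induced proteins 3 of 8 rose, and 7 of 8 had a difference above 0. IFI44L, a feedback regulator of the response, read 8.55, 8.13 and 8.0 in GFP and 9.46, 9.25 and 9.36 in TwistER, a 2.19-fold rise (1.13 ± 0.16, adjusted p = 0.00269). IFI6, an anti-apoptotic membrane protein, read 6.08, 6.14 and 5.49 in GFP and 6.72, 6.78 and 6.67 in TwistER (1.77-fold, 0.82 ± 0.17, adjusted p = 0.0214). IFI27, its relative, read 4.30, 4.54 and 4.51 in GFP and 5.02, 5.04 and 5.0 in TwistER (1.49-fold, 0.57 ± 0.11, adjusted p = 0.0142). The TwistER arrays were tight and above all GFP arrays in IFI6 and IFI27. Both calls were lost when any single TwistER array was omitted, with a highest adjusted p of 0.0944 for IFI6 and 0.0746 for IFI27.

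In the same group, 3 members with separated arrays missed the threshold. IFI44 read 8.66, 8.30 and 8.20 in GFP and 8.94, 8.76 and 8.67 in TwistER (0.40 ± 0.15, adjusted p = 0.151). IFI35, a partner of the signalling protein NMI, read 4.39, 4.88 and 4.56 in GFP and 4.94, 5.01 and 5.25 in TwistER (0.46 ± 0.15, adjusted p = 0.113). XAF1, a pro-apoptotic antagonist of XIAP, read 3.72, 3.64 and 3.72 in GFP and 3.98, 4.06 and 4.12 in TwistER (0.36 ± 0.10, adjusted p = 0.0701). The separation was narrow in IFI44, with TwistER replicate 3 at 8.67 beside GFP replicate 1 at 8.66. It was also narrow in IFI35, with TwistER replicate 1 at 4.94 beside GFP replicate 2 at 4.88. LGALS3BP, a secreted lectin-binding glycoprotein, differed by 0.22 and EPSTI1 by -0.09, and GFP replicate 1 was the odd array in both, at 6.31 for LGALS3BP where the other arrays read 7.02 to 7.22.

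Nucleic acid sensors split, with IFI16 alone passing among 5. IFI16, a nuclear DNA sensor, read 8.71, 8.33 and 8.42 in GFP and 9.30, 9.24 and 9.18 in TwistER, a 1.69-fold rise (0.75 ± 0.13, adjusted p = 0.00761). The RNA helicases did not pass: IFIH1 (MDA5, a sensor of long double-stranded RNA) differed by -0.05 and DHX58 (LGP2, its cofactor) by -0.02. EIF2AK2 (PKR), a kinase that halts translation on double-stranded RNA, differed by -0.05, with a 95% interval of -0.29 to 0.18. DDX60, a helicase that promotes RNA sensing, read 7.92, 7.54 and 7.35 in GFP and 7.39, 7.11 and 7.24 in TwistER (-0.36 ± 0.16, adjusted p = 0.249), with overlapping groups.

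The OAS enzymes make adenylate chains that activate RNase L, and 1 of the 5 members listed with them rose. OAS2 read 3.83, 3.84 and 3.88 in GFP and 4.33, 4.38 and 4.21 in TwistER, a 1.37-fold rise (0.45 ± 0.10, adjusted p = 0.0304). The groups were separate but the mean lay in the lowest quartile of all genes, and the call held only with the full set or without GFP replicate 1 (highest adjusted p = 0.140). OAS1 differed by -0.05, OAS3 by -0.16 and the catalytically inactive relative OASL by -0.05. The exonuclease ISG20 differed by 0.21.

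None of the 4 IFIT proteins, which bind foreign RNA ends, passed in limma, although 3 had an unadjusted p below 0.05. Over all genes tested, 3969 of 18417 reached that level. IFIT5 read 5.96, 5.63 and 5.65 in GFP and 6.08, 6.16 and 6.21 in TwistER (0.40 ± 0.13, adjusted p = 0.0907). IFIT3 differed by 0.36 ± 0.11 and IFIT2 by -0.25 ± 0.10, each with separated groups, and IFIT1 differed by -0.11. The differences of the family had both signs.

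ISG15, a ubiquitin-like protein, and its conjugation enzymes also gave 0 calls among 4 in limma, where 2 had an unadjusted p below 0.05. ISG15 read 6.43, 6.42 and 6.29 in GFP and 6.26, 5.69 and 5.89 in TwistER (-0.44 ± 0.15, adjusted p = 0.133). Its TwistER arrays all lay below its GFP arrays, opposite in direction to the members that rose. UBE2L6, the conjugating enzyme, differed by 0.35, the ligase HERC5 by -0.31 and HERC6 by 0.21.

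The PARP and SAMD9 families held rises and the single fall. SAMD9L, an antiviral and growth-restraining protein, read 7.27, 6.67 and 6.72 in GFP and 7.85, 7.78 and 7.58 in TwistER, a 1.80-fold rise (0.85 ± 0.17, adjusted p = 0.0178). PARP14, a mono-ADP-ribosyltransferase, read 7.31, 6.98 and 7.01 in GFP and 7.96, 7.95 and 7.74 in TwistER, a 1.72-fold rise (0.78 ± 0.13, adjusted p = 0.00703). PARP12, an ADP-ribosyltransferase that restricts RNA viruses, read 5.96, 6.32 and 6.32 in GFP and 5.80, 5.42 and 5.41 in TwistER, a 1.58-fold fall (-0.66 ± 0.16, adjusted p = 0.0338). Each of the 3 had separate groups, with GFP replicate 1 the GFP array nearest to TwistER. The PARP12 call was lost without GFP replicate 2 or 3 or TwistER replicate 2 or 3 (highest adjusted p = 0.143), and that of SAMD9L without GFP replicate 2 or 3 or TwistER replicate 1 or 2 (highest adjusted p = 0.0817). PARP9 (-0.30) and SAMD9 (-0.28) did not pass.

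TRIM22, an antiviral ubiquitin ligase, read 3.08, 3.24 and 3.16 in GFP and 3.87, 3.81 and 3.50 in TwistER, a 1.48-fold rise (0.57 ± 0.13, adjusted p = 0.0301). Its probe set was among the 3 dimmest of the members, with XAF1 and EPSTI1, and its call was lost without GFP replicate 2 or 3 or TwistER replicate 1 or 2 (highest adjusted p = 0.133). TRIM21, a cytosolic antibody receptor, differed by 0.21, and SP100, a nuclear body protein, differed by 0.00 (95% interval -0.24 to 0.23). EIF2AK2, SAMD9 and IFI16 had the brightest probe sets, which does not rank the transcripts, since probe sets differ in their response.

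No transcription factor or signalling regulator of the set passed in limma (0 of 4 measured), and 1 had an unadjusted p below 0.05. IRF9, the DNA-binding subunit of the ISRE complex, read 5.60, 5.44 and 5.50 in GFP and 5.80, 6.13 and 5.92 in TwistER (0.43 ± 0.12, adjusted p = 0.0635). Its arrays separated by line, and it passed without GFP replicate 1 (adjusted p = 0.0353). IRF7, the amplifier of type I interferon transcription, differed by 0.01 (95% interval -0.26 to 0.29) and IRF1 by 0.12. USP18, which removes ISG15 and blocks the receptor, differed by -0.23. A probe set it shares with another symbol differed by -0.60 and was not used.

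**Figure D3:**
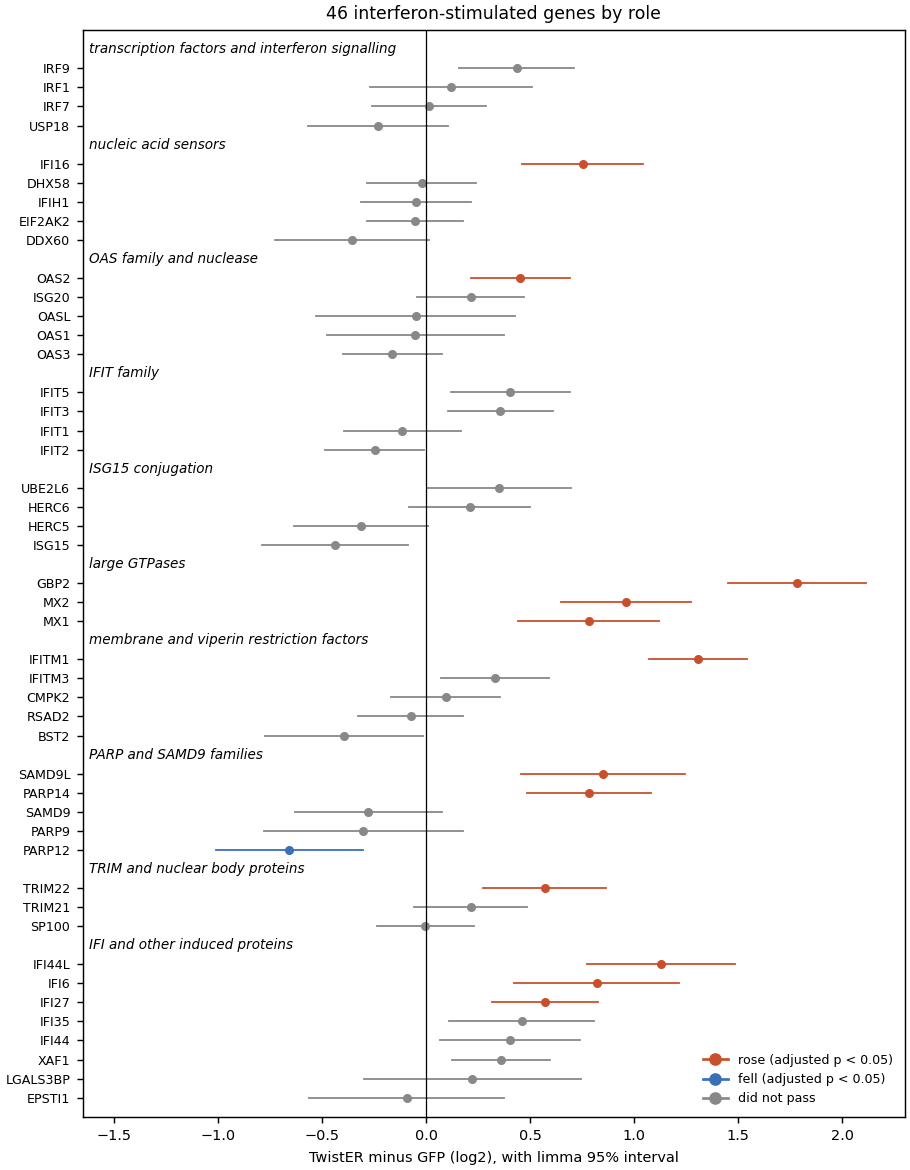
TwistER minus GFP difference (log2, horizontal axis) of each of the 46 members with its limma 95% interval, grouped by role. The 12 members that rose are in red, PARP12, which fell, in blue and the 33 that did not pass in grey; each role with a rise, apart from the large GTPases, also holds grey members.

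Many members lie beside each other in the genome, so the change of one could be set against that of its neighbour within the same arrays. By the RefSeq gene order, 21 members formed 15 pairs with at most 2 tested genes between them. The gap between the genes of a pair (the log2 value of one minus the other) was fitted in limma over all 55019 such pairs of tested genes, of which 12.4% changed. The test was added with the members' differences known. Gaps changed in 6 of the 15 member pairs, and in 3 to 9 of them with an array left out, 3 being without TwistER replicate 3.

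The values below are the TwistER minus GFP difference of one gene minus that of its neighbour, and the gap itself, which lies between unlike probe sets, is not read. For SAMD9 minus SAMD9L on chromosome 7 the differences were unequal by -1.13 ± 0.15 (adjusted p = 0.00100). For PARP9 minus PARP14 on chromosome 3 they were unequal by -1.09 ± 0.18 (adjusted p = 0.00318). IFITM1 changed more than IFITM3 on chromosome 11 (0.98 ± 0.16, adjusted p = 0.00319). These 3 pairs passed with any single array omitted. IFI44L also changed more than IFI44 on chromosome 1 (0.73 ± 0.15, adjusted p = 0.0126), a call lost without TwistER replicate 3. OAS3 against OAS2 on chromosome 12 (-0.61 ± 0.15, adjusted p = 0.0277) and IFIT2 against IFIT3 on chromosome 10 (-0.60 ± 0.16, adjusted p = 0.0390) passed, and both were lost on omission of any 1 of the other 5 arrays than GFP replicate 1. MX2 and MX1 on chromosome 21 rose together, with a gap change of 0.18 ± 0.17 (95% interval -0.19 to 0.55) that did not pass.

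**Figure D4:**
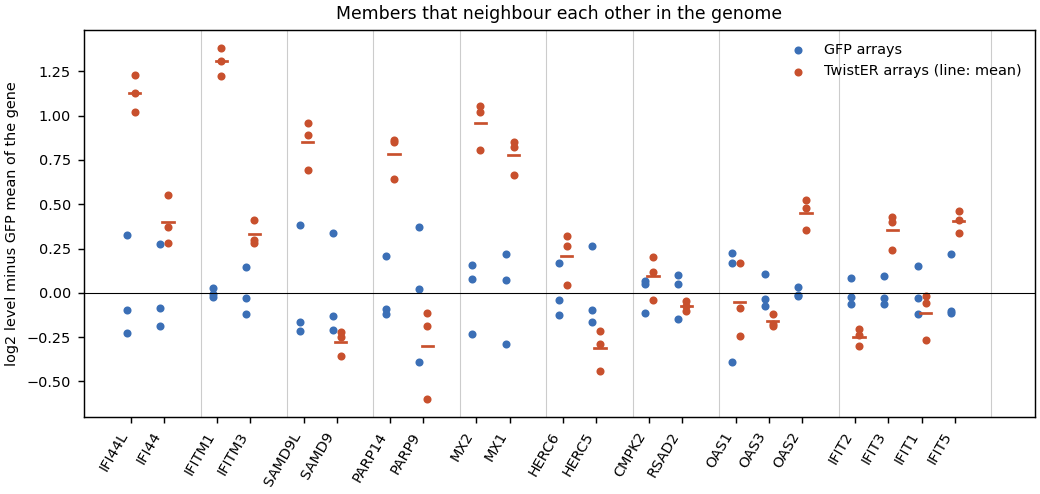
Log2 level of each array minus the gene's GFP mean, for members that neighbour each other in the genome, with GFP arrays in blue, TwistER arrays in red and a line at the TwistER mean. SAMD9L, PARP14, IFITM1 and IFI44L stand above the neighbour drawn beside them, whereas MX2 and MX1 are both raised.

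Other genes of the interferon pathway were read from a separate list of 56 written from general knowledge, also with earlier results known. It held ligands, receptors, kinases and STATs, sensors and adaptors, and negative regulators. Of the 56, 50 were measured and 5 were only on probe sets with several symbols. Rises numbered 3 and falls 2 (10.0% changed, against 8.83% of all genes), and the median difference of the 50 was 0.03. The list as a whole was thus near the background, and the genes below are given singly. Its 8 negative regulators gave 0 calls in limma, with 2 at an unadjusted p below 0.05. Interferon genes themselves gave 0 calls among 16 in limma, with 1 at an unadjusted p below 0.05, a level reached by 3969 of all 18417 genes. Of their 16 probe sets, 13 had a mean in the lowest quartile of all genes. IFNB1, interferon beta, read 3.73, 2.88 and 3.16 in GFP and 3.37, 3.28 and 3.26 in TwistER, with overlapping groups (95% interval -0.40 to 0.50).

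The 3 rises were in 2 of 6 receptor genes and 1 of 4 kinase and STAT genes measured. IFNGR2, the signalling chain of the interferon gamma receptor, read 6.89, 7.04 and 6.93 in GFP and 7.93, 7.84 and 7.93 in TwistER (1.92-fold, 0.94 ± 0.10, adjusted p = 0.000850). IFNAR2, a chain of the type I receptor, read 4.69, 4.06 and 4.05 in GFP and 5.29, 5.20 and 5.15 in TwistER (1.93-fold, 0.95 ± 0.18, adjusted p = 0.0123). JAK1 read 8.82, 9.31 and 9.35 in GFP and 9.86, 9.87 and 9.91 in TwistER (1.65-fold, 0.72 ± 0.15, adjusted p = 0.0212). All 3 had separate groups, and the calls of IFNAR2 and JAK1 were lost when any single TwistER array was omitted (highest adjusted p = 0.0606 and 0.0884). The partner chain IFNAR1 differed by -0.05 and the kinase TYK2 by 0.35 (adjusted p = 0.249). IFNGR1, the partner chain of IFNGR2, differed by -0.17 and the kinase JAK2 by 0.05, and neither passed.

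Both falls were in cytosolic DNA sensors, among 16 sensors and adaptors measured. CGAS, which makes the messenger that activates STING, read 8.22, 7.86 and 7.78 in GFP and 7.10, 7.03 and 6.88 in TwistER (1.93-fold lower, -0.95 ± 0.14, adjusted p = 0.00406). AIM2, an inflammasome sensor of the same family as IFI16, read 8.68, 8.56 and 8.54 in GFP and 7.95, 7.80 and 7.66 in TwistER (1.73-fold lower, -0.79 ± 0.12, adjusted p = 0.00367). The groups of CGAS and AIM2 were separate, and IFI16 differed from them in direction. The RNA sensor RIG-I (RIGI) differed by -0.16 and the interferon-inducing factor IRF3 by -0.06.

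**Figure D5:**
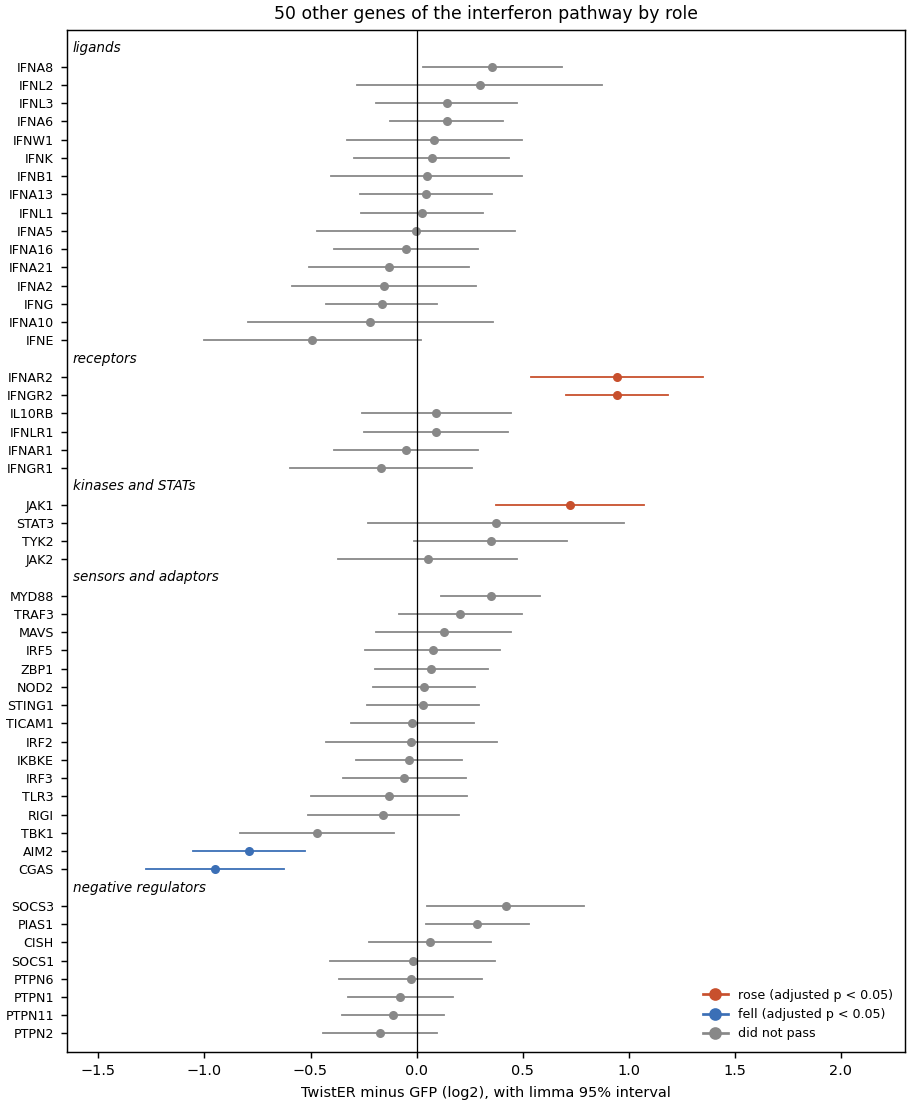
TwistER minus GFP difference (log2, horizontal axis) of the 50 measured genes of the interferon pathway outside the members, with limma 95% intervals, grouped by role. IFNAR2, IFNGR2 and JAK1 (red) rose, CGAS and AIM2 (blue) fell, and the 16 interferon genes are all grey.

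A further list, chosen with earlier results of these data known, held induced genes that were no members. Of 35 measured, 5 rose and 1 fell (14.3% rises, against 4.72% of all genes), with a median of 0.17, and without GFP replicate 1, 8 rose and 3 fell. TNFSF10, the death ligand TRAIL, read 5.08, 4.41 and 4.87 in GFP and 6.68, 6.98 and 6.85 in TwistER (4.14-fold, 2.05 ± 0.18, adjusted p = 0.000231). APOL1, a trypanosome-lysing apolipoprotein, rose 2.45-fold, GBP3, a GTPase related to GBP2, 1.90-fold, the helicase-like ZNFX1 1.72-fold and IFITM2 1.57-fold. PNPT1, a mitochondrial exoribonuclease, fell 1.53-fold. Without any single TwistER array the rises in this list numbered 3 and PNPT1 lost its call, as it also did without GFP replicate 2. With a single array left out, calls over all genes ran from 831 to 2773, against 1627 with every array.

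Cell type markers were read on the same arrays. The 6 epithelial markers averaged 9.21 to 9.86 in GFP and 7.21 to 7.25 in TwistER, and 4 of them fell (KRT8, KRT19, EPCAM and CDH1). Without GFP replicate 1 all 6 fell, KRT18 and CDH3 included. Leukocyte markers, which stand for cells with a strong interferon response, gave 0 calls among 7 in limma. Of the 7, 1 had an unadjusted p below 0.05, as had 3969 of all 18417 genes. The leukocyte markers averaged 3.94 to 4.03 in GFP and 4.04 to 4.14 in TwistER. Without GFP replicate 1, PTPRC of this list rose (0.48 ± 0.12, adjusted p = 0.0407). Of 6 fibroblast markers COL1A1 rose and LUM fell, and of 4 endothelial markers PECAM1 and KDR rose (4.19 to 4.32 in GFP, 4.84 to 4.86 in TwistER). Their part in the members' values was not tested. In such bulk RNA, more cells with a transcript and more transcript per cell cannot be told apart.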

How the data were processed

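Each of the 6 samples was run on its own Affymetrix array, per the labels' protocols. The authors deposited log2 expression values, 1 per probe set; RMA is the tool named for them in the submitters' processing notes. Because RMA forces the arrays to a common distribution, a change of all genes together is not visible. No version or setting of it is named in the sources used here. Array medians ran from 4.95 to 5.03, and 0 pairs of arrays were identical.

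Of 33297 probe sets, 19460 had 1 symbol in the platform annotation, 1754 had several and 12083 were unnamed there. The brightest 1-symbol probe set stood for each gene. Differences were fitted with limma 3.58.1 in R 4.3.3 (lmFit, eBayes, 2-sided, no covariates). No filter on brightness was applied. Of the genes tested, 18389 were placed by RefSeq's gene table (GRCh38.p14). 1 pair on repeated values was left out of the neighbour fit. In simulated data of 18417 genes, limma recovered 96% of genes shifted by 2, 67% of those shifted by 1 and 6% of those shifted by 0.5. The simulation shifted 200 genes, where 1627 changed in the real arrays, so its shares need not hold for them. Plots used Python 3.11.15 and matplotlib 3.10.9.

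The members, lists and alternatives were chosen with earlier results of these data known, the neighbour test last. Alternatives were scaling, brightness filters, probe set means, array weights, another variance model, a replicate block, other thresholds and each array left out. All members may be named. Array values are given for members that passed, the 8 largest differences that did not, and IFITM3. Of the other lists, genes that passed were named, with TYK2, IFNAR1, IFNB1, RIGI and IRF3 whatever their value. IFNGR1 and JAK2 were added beside IFNGR2. With 3 arrays a group, precision is limited by their number.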

Additional observations from a re-analysis of the deposited data

How the results depend on the processing

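The median difference of the members was 0.18 after a second quantile normalization or median centring, 0.16 and 0.093 among genes above the 25th percentile or the median level, 0.15 with array weights and 0.14 to 0.22 with each array left out. Members that rose numbered 7 above the median level, which 29 members reach, 6 at adjusted p 0.01 and 6 to 16 with each array left out. At that brightness filter 1581 of the 9208 genes tested changed in either direction. The fallen count was 0 with the replicate block, 0 at adjusted p 0.01 and 0 to 1 with an array left out. All genes changed numbered 3268 with array weights, 807 at adjusted p 0.01 and 831 to 2773 with an array left out. Pathway genes that rose numbered 5 with array weights, 1 at 0.01 and 1 to 3 with an array left out. Further induced genes that rose numbered 9, 3 and 3 to 8 in the same order, and those that fell 4, 0 and 0 to 3. Neighbour pairs numbered 3 to 9 with an array left out. The cause of these shifts was not tested.

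With the replicate block 11 members rose, and OAS2 (adjusted p = 0.0611) and PARP12 (adjusted p = 0.0685) no longer passed. Arrays of the same number had correlated deviations of 0.139, 0.015 and 0.157, so the numbers were not taken as pairs. TRIM22 missed the threshold after a second quantile normalization (adjusted p = 0.0554).

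Signs turned in members that had not passed. IRF7 was -0.014 after quantile normalization, -0.017 after median centring and -0.051 with array weights. SP100 was 0.012 after quantile normalization. With array weights SP100 was 0.022, IRF1 -0.027, IFIH1 0.022, EPSTI1 0.11 and LGALS3BP -0.039. With each array left out, the ranges were IRF1 -0.019 to 0.25, IRF7 -0.064 to 0.075, IFIH1 -0.12 to 0.035, SP100 -0.035 to 0.025, EPSTI1 -0.25 to 0.16, LGALS3BP -0.073 to 0.38, DHX58 -0.10 to 0.029, OAS1 -0.25 to 0.059 and OASL -0.29 to 0.078. The number of arrays, 3 a group, limits what the test can call.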
